A study of Danio rerio with 4 samples.

Results

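The genes *cdx4*, *cdx1a*, *eve1*, *hoxb1b* and *hoxb1a*, which mark or set posterior identity, were followed in single-cell RNA-seq of zebrafish gastrulae. They were taken by name from the gene list of the deposited matrix, and all 5 were found among 47376 gene entries (*hoxb1b* has a further entry with a numeric suffix, which was added to it and held no count). The cells came from whole embryos at the shield stage, in 2 libraries of M*rbm24a* embryos, numbered 1 and 2, and 2 of siblings, likewise numbered and also labelled wild type, with 33 embryos stated for the dissociation. M*rbm24a* embryos lack maternal Rbm24a, an RNA-binding protein of the germ plasm. They descend from females that carry an in-frame RFP at *rbm24a*, a *zpc*:*cas9* cassette active in oocytes and a transgene with 4 sgRNAs against *rbm24a*. They were picked as BFP-positive embryos without RFP. Editing happens oocyte by oocyte, so an M*rbm24a* library can hold different alleles, while the zygotic gene from the father is not the target of the design. The labels do not say whether libraries of one genotype came from separate clutches, and p-values then measure the spread between these libraries, which may be technical. The paper states that the cells were collected in 2 batches, and the labels do not tie a library number to a batch.

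Caudal-type homeobox (Cdx) factors act in the posterior embryo of vertebrates, where they activate posterior *hox* genes and keep axis elongation going. In the zebrafish, *cdx4* is the gene mutated in *kugelig*, *cdx1a* is its close relative, and *eve1* is an even-skipped homologue of the ventral and posterior margin that acts downstream of BMP and Wnt signals. The *hoxb1a* and *hoxb1b* genes belong to the paralogy group that patterns the hindbrain, and *hoxb1b* is among the *hox* genes that are switched on first. In the RefSeq gene table (GRCz12tu assembly, used for gene order only), *eve1* lies beside *hoxb13a* at the end of the hoxba cluster on chromosome 3, which also holds *hoxb1a*. *cdx4* and *cdx1a* are both on chromosome 14, and *hoxb1b* is on chromosome 12.

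The libraries held 3402 to 3952 cells with a median of 9778 to 15667 UMIs (unique molecular identifiers, 1 per counted mRNA molecule) per cell, and any pair of libraries shared at most 4 barcodes. The mRNA of *rbm24a* itself was low in every library (0.381 and 0.314 CPM, counts scaled to 1000000 UMIs, in M*rbm24a* libraries, against 0.438 and 0.469 in siblings). At 17.7 to 27.1 UMIs per library it was not used as a check of the labels, and small edits need not change a count. By qRT-PCR the paper reports a significant reduction of *rbm24a* transcript in embryos picked this way. The primordial germ cell genes *nanos3*, *dnd1*, *ca15b* and *tdrd7a* summed to 16.4 and 15.8 CPM in M*rbm24a* libraries, against 130 and 134 CPM in siblings. Genes of the enveloping layer (EVL), the outer epithelium, also differed between the genotypes: 6 of them summed to 1152 and 1256 CPM in M*rbm24a* libraries, against 1878 and 2184 CPM in siblings. Cells with *lye*, *cldne* and *krt92* all above 0.5, an EVL set, numbered 67 and 123 in M*rbm24a* libraries, against 132 and 330 in siblings, and those of sibling 2 had a median of 1009 UMIs.

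The 2 early *hox* members had almost no counts at this stage. *hoxb1b* had 0 UMIs in both M*rbm24a* libraries, against 0.996 UMIs in sibling 1 and 1.07 UMIs in sibling 2. *hoxb1a* had 0.940 UMIs in M*rbm24a* 2 and 0 in M*rbm24a* 1 and in both siblings. At this depth 3 counts in a library would be 0.0506 to 0.0646 CPM in M*rbm24a* libraries and 0.0484 to 0.0747 CPM in siblings, and both genes stayed under that limit everywhere, so neither was tested and no difference was detectable. Low counts extended to the family: of 50 further Cdx, Eve and Hox genes in the files (47 *hox* genes, *cdx1b*, *evx1* and *evx2*), all 50 averaged under 1 CPM, 14 were at 0 in all 4 libraries, and the highest mean was 0.308 CPM. The *hox* members were thus not measurable in cells in which the 3 other members were. A count of 0 need not mean a silent gene. *wnt8a* and *bmp2b* also had 0 UMIs in all 4 libraries, and whether reads reached such entries was not tested.

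**Figure D1:**
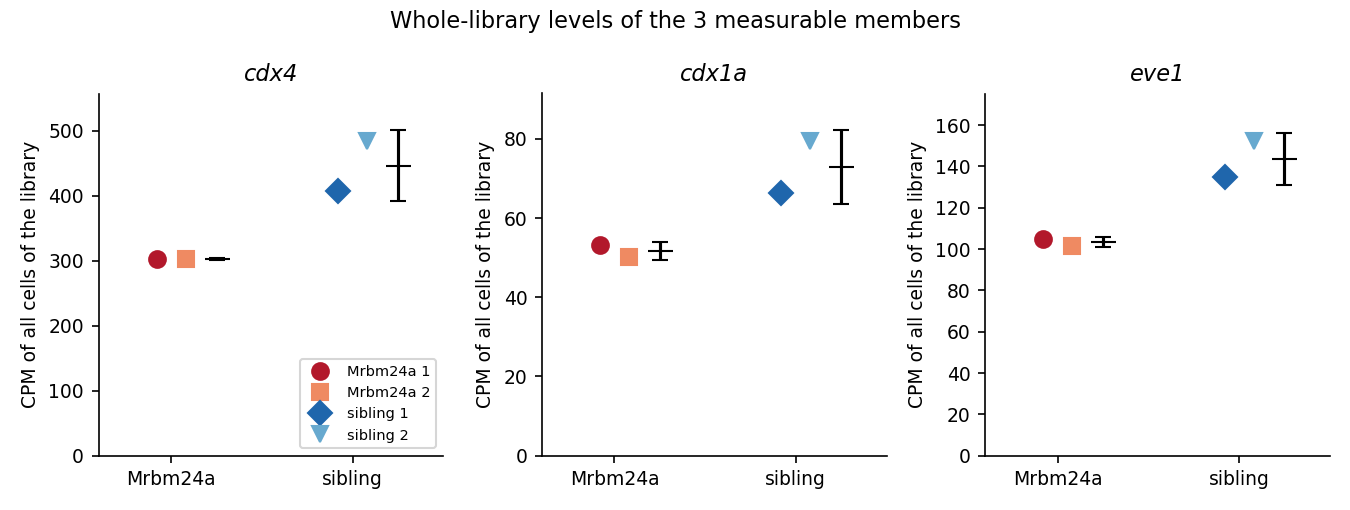
Level of *cdx4*, *cdx1a* and *eve1* in whole libraries, as CPM over all cells of a library (one point per library, bars: mean and SD of the 2 libraries of a genotype, axis from 0). For each gene both M*rbm24a* libraries lie below both siblings, and the siblings lie further apart from each other than the M*rbm24a* libraries do.

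In whole libraries the 3 measurable members were lower in M*rbm24a* than in sibling libraries, with the difference near the threshold of the test. *cdx4* had 301.9 and 303.2 CPM in M*rbm24a* libraries, against 407.9 and 484.5 CPM in siblings (log2 fold change -0.51 ± 0.09 SE). *cdx1a* had 53.2 and 50.1 CPM in M*rbm24a* libraries, against 66.4 and 79.5 CPM in siblings (-0.45 ± 0.09). *eve1* had 105.0 and 101.6 CPM in M*rbm24a* libraries, against 134.6 and 152.4 CPM in siblings (-0.43 ± 0.08). The groups did not overlap for any of the 3 genes, as was the case, in this direction, for 28.5% of the 17762 genes tested. By edgeR's quasi-likelihood test with Benjamini-Hochberg adjustment over all genes, none of the 3 passed 0.05 (adjusted p = 0.054 for *cdx4*, 0.0693 for *cdx1a* and 0.0591 for *eve1*), beside 1.1% of all genes. The unadjusted p was 0.000681 for *cdx4*, 0.00124 for *cdx1a* and 0.000875 for *eve1*. DESeq2 called all 3 lower (adjusted p = 0.000693, 0.0149 and 0.00671 in the same order of genes), where it called 1.86% of genes lower. limma called *cdx4* (adjusted p = 0.0436), beside 1.42% of genes lower. With 1 library left out the estimates stayed between -0.58 and -0.38, but the calls ranged from none of the 3 without either M*rbm24a* library to all 3 without either sibling. In summed cells, fewer cells of a type and less RNA per cell cannot be told apart.

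The other genes of the posterior and ventral program gave a wider view. The list held 30 signals and factors of the ventral and posterior margin, among them Wnt, BMP, Fgf, T-box and retinoic acid genes. It also held *cdx1b* and *evx1*, which were counted above among the further Cdx, Eve and Hox genes. Of the 30 genes, 24 passed the filter on low counts. None was higher and 2 were lower in M*rbm24a* libraries, with a list median of -0.37 on the log2 scale beside -0.00 over all genes tested, and 22 of the 24 estimates were below 0. Of all genes tested, 0.946% were called lower. The 2 lower genes were *vox*, a ventral homeobox repressor downstream of BMP (-0.62 ± 0.09, adjusted p = 0.0364), and *dact1*, a modulator of Wnt signalling (-0.64 ± 0.09, adjusted p = 0.0272). Of 14 genes of the Hox cofactor families Pbx, Meis and Pknox, 13 were tested and none passed, with a median of -0.11.

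To place the members in the gastrula, cells were taken as positive for a marker where its deposited value was over 0.5: *szl* for ventral cells of any layer, *tbx6l* for paraxial, *noto* for axial and *twist1a* for lateral mesoderm, *her3* for neural and *hesx1* for anterior neural ectoderm, *foxi1* for epidermal ectoderm and *sox32* for endoderm. A cell can be in several of these sets. The sets held 418 cells (*twist1a*-positive, sibling 2) to 1526 cells (*sox32*-positive, M*rbm24a* 1). Cells positive for a marker were deeper than the rest, with medians of 11425 to 21292 UMIs. Cells positive for 4 or more of the 8 markers made up 15.5% and 11.6% of M*rbm24a* libraries, against 13.9% and 7.18% of siblings. They had medians of 27469 to 36590 UMIs, and whether these are pairs of cells or cells with free RNA was not tested. Levels are therefore also given for cells positive for 1 marker only. Of 5 other genes taken as markers of each region, 4 were higher in *szl*-, 5 in *tbx6l*-, 5 in *noto*-, 5 in *twist1a*-, 4 in *her3*- and 5 in *sox32*-positive cells than in other cells. It was 3 in *hesx1*- and 3 in *foxi1*-positive cells, where *six3b* and *six7* (anterior neural) and *gata3* and *krt8* (epidermal) did not pass. Of the ventral and neural genes, *bmp2b* and *zic2b* were not tested. The names of the *hesx1*- and *foxi1*-positive sets stand only for their marker gene, also where *her3*- and *hesx1*-positive cells are together called neural.

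**Figure D2:**
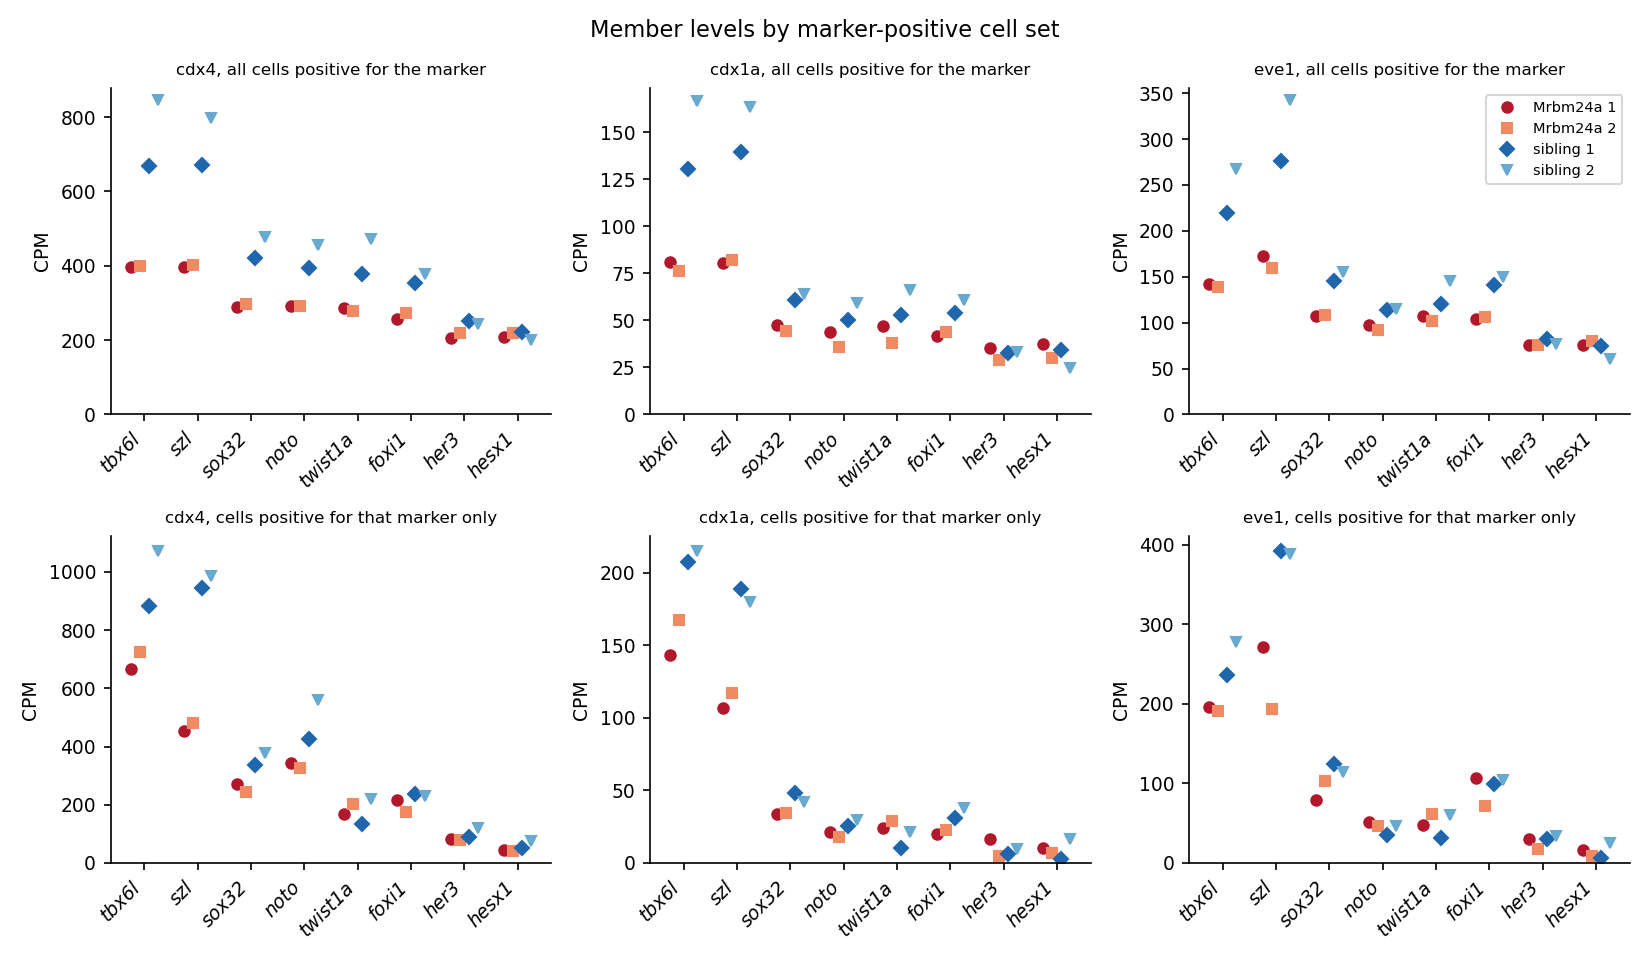
CPM of *cdx4*, *cdx1a* and *eve1* in cells positive for each of the 8 markers, by library (points), for all positive cells (upper row) and for cells positive for that marker alone (lower row); axes start at 0. All 3 genes are highest in *tbx6l*- and *szl*-positive cells and lowest in *her3*- and *hesx1*-positive cells. In the upper row the M*rbm24a* points lie furthest below the siblings where the level is high. In the lower row the M*rbm24a* points of *cdx4* also lie below the siblings in cells positive for *her3* or *hesx1* alone. Those of *cdx1a* and *eve1* overlap with the siblings in cells positive for *hesx1* alone.

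Among the marker sets, all 3 members were highest in paraxial (*tbx6l*-positive) and ventral (*szl*-positive) cells and lowest in neural cells. The EVL set averaged less of each than *hesx1*-positive cells, at 155 ± 61.1 CPM of *cdx4*, 16.0 ± 13.2 of *cdx1a* and 43.3 ± 24.1 of *eve1* (SD, n = 4). It was above them for *cdx4* in M*rbm24a* 2 (230 against 220 CPM) and for *cdx1a* in sibling 2 (29.6 against 24.7 CPM). In *tbx6l*-positive cells *cdx4* had 397 and 399 CPM in M*rbm24a* libraries, against 668 and 847 CPM in siblings. In *hesx1*-positive cells it had 210 and 220 CPM in M*rbm24a* libraries, against 223 and 201 CPM in siblings. Over the 4 libraries the mean ± SD of *cdx4* was 578 ± 220 CPM in *tbx6l*-positive cells, 567 ± 201 in *szl*-, 372 ± 92.4 in *sox32*-, 358 ± 81.7 in *noto*-, 354 ± 90.5 in *twist1a*-, 316 ± 59.8 in *foxi1*-, 230 ± 21.5 in *her3*- and 213 ± 9.8 in *hesx1*-positive cells. In that order *tbx6l* and *szl*, *noto* and *twist1a*, and *her3* and *hesx1* differed by less than the SD of their within-library difference, while the step down from *szl* to *sox32* and that from *foxi1* to *her3* had the same sign in all 4 libraries.

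*cdx1a* kept the same top and bottom, at 116 ± 41.6 CPM in *szl*- and 114 ± 43.0 CPM in *tbx6l*-positive cells, and 32.7 ± 2.7 in *her3*- and 31.7 ± 5.5 in *hesx1*-positive cells (SD, n = 4). The *sox32*-, *twist1a*-, *foxi1*- and *noto*-positive sets lay close together between 47.2 and 54.2 CPM, and none of these neighbours differed beyond the SD of the difference. *eve1* had its top in the ventral set, beyond the SD of the difference from the paraxial set: 237 ± 87.0 CPM in *szl*- and 192 ± 62.3 CPM in *tbx6l*-positive cells, with *szl* above *tbx6l* in all 4 libraries (mean difference 45.5 ± 24.9 CPM, SD). Its lowest marker sets were again *her3*-positive (77.7 ± 2.9 CPM) and *hesx1*-positive cells (72.7 ± 8.8 CPM), which did not differ beyond the SD.

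Set against all other cells of the same libraries, with the library as a covariate, the ventral and paraxial sets had more of each member. In *szl*-positive cells *eve1* was higher by 1.47 ± 0.12 on the log2 scale, *cdx1a* by 1.41 ± 0.12 and *cdx4* by 0.88 ± 0.08, and all 3 passed (adjusted p = 0.000337, 0.000337 and 0.000416 by edgeR), where 6.24% of 15244 genes passed as higher. In *tbx6l*-positive cells *cdx1a* led, with 1.80 ± 0.11, ahead of *eve1* with 1.24 ± 0.08 and *cdx4* with 1.18 ± 0.10, and all 3 passed (adjusted p = 0.000558, 0.000558 and 0.000668), beside 12.4% of genes. Both sets share cells, and where a cell was positive for *szl* and *tbx6l* (186 to 308 cells per library) *cdx4* had 462 and 415 CPM in M*rbm24a* libraries, against 835 and 1031 CPM in siblings. The list of posterior and ventral genes is not separate from the marker check. It holds *ved*, *bmp4* and *bambia*, used to check the *szl* set, and *msgn1*, *tbx16* and *fgf8a*, used for the *tbx6l* set. Each of these 2 markers was also counted in the test of the other. Of the list, 13 of 23 tested were higher and 3 lower in *szl*-positive cells (median 0.39, against 0.02 over all genes). In *tbx6l*-positive cells 17 list genes were higher and 2 lower (median 0.72, against 0.01). The list genes with the largest rise in *szl*-positive cells were *bmp4* (1.22 ± 0.11, adjusted p = 0.000458), *ved* (1.19 ± 0.10, adjusted p = 0.000365), *bambia* (1.09 ± 0.08, adjusted p = 0.000252) and *bmp7a* (0.95 ± 0.08, adjusted p = 0.000316), 2 BMP ligands, a ventral repressor and a BMP pseudoreceptor. In *tbx6l*-positive cells they were *tagln3b* (3.29 ± 0.37), *msgn1* (2.64 ± 0.25), *fgf17* (1.43 ± 0.17) and *tbxta* (1.42 ± 0.11), among them the regulators of presomitic mesoderm *msgn1* and of the tailbud and notochord *tbxta*. The fold of *tagln3b* rests on few counts, at 0.323 to 0.542 CPM in whole libraries.

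The neural sets had less of all 3. In *her3*-positive cells *cdx4* fell by 0.90 ± 0.12, *cdx1a* by 1.2 ± 0.14 and *eve1* by 0.86 ± 0.13 relative to other cells (adjusted p = 0.00154, 0.000971 and 0.00308), beside 11.7% of 15440 genes that passed as lower. In *hesx1*-positive cells the same genes fell by 0.88 ± 0.14, 1.07 ± 0.18 and 0.83 ± 0.17 (adjusted p = 0.00593, 0.00685 and 0.0151), beside 9.02% of genes. Of the 23 posterior and ventral genes tested, 19 were lower in each of these sets, with 3 higher in *her3*- and 1 higher in *hesx1*-positive cells. Between both neural sets, over cells not positive for the other marker, no member passed: *hesx1*- over *her3*-positive cells gave -0.06 ± 0.05 for *cdx4*, 0.15 ± 0.08 for *cdx1a* and -0.09 ± 0.09 for *eve1* (adjusted p = 0.711, 0.521 and 0.782; 3.16% of genes passed). With cells positive for 1 marker only, *cdx4* (-0.75 ± 0.12, adjusted p = 6.23e-05) and *eve1* (-0.96 ± 0.24, adjusted p = 0.0182) passed as lower in *hesx1*-positive cells, beside 1.52% of genes, although 2 libraries then held under 50 of them (45 and 49 cells).

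In the remaining sets the members went different ways. In *noto*-positive cells, whose marker makes the notochord, *cdx1a* (-0.57 ± 0.04, adjusted p = 0.000178) and *eve1* (-0.29 ± 0.07, adjusted p = 0.0298) were lower than in other cells, beside 3.39% of genes, whereas *cdx4* was not past the threshold (-0.05 ± 0.04, adjusted p = 0.5). Ventral against axial cells differed in all 3: *szl*- over *noto*-positive cells gave 2.07 ± 0.10 for *cdx1a*, 1.86 ± 0.13 for *eve1* and 0.99 ± 0.06 for *cdx4* (adjusted p = 1.12e-06, 4.3e-06 and 1.82e-06), beside 4.71% of 12544 genes higher. In *twist1a*-positive cells only *cdx1a* passed (-0.29 ± 0.04, adjusted p = 0.013; 2.3% of genes lower), with -0.02 ± 0.04 for *cdx4* and 0.04 ± 0.06 for *eve1*.

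*foxi1*-positive cells had less *cdx1a* (-0.36 ± 0.06, adjusted p = 0.0274) and *cdx4* (-0.27 ± 0.05, adjusted p = 0.0467) than other cells, beside 1.92% of genes, and 0.07 ± 0.04 for *eve1*. They stood above the neural set in all 3: *foxi1*- over *her3*-positive cells gave 1.02 ± 0.10 for *eve1*, 0.92 ± 0.11 for *cdx1a* and 0.66 ± 0.07 for *cdx4* (adjusted p = 5.13e-05, 0.000224 and 4.22e-05; 7.45% of 12852 genes higher). *sox32*-positive cells had less *cdx1a* (-0.23 ± 0.05, adjusted p = 0.0244; 7.27% of genes lower) and more *eve1* (0.22 ± 0.05, adjusted p = 0.0241; 11.1% higher), with 0.07 ± 0.04 for *cdx4*. In *sox32*-only cells *eve1* turned to -0.17, and its call was lost without M*rbm24a* 2 (adjusted p = 0.0567) and without sibling 1 (adjusted p = 0.0776). Only 1 member passed with any 1 library left out, while *cdx1a* stayed between -0.28 and -0.19. *sox32*-positive cells fell below paraxial cells in all 3, with -2.32 ± 0.07 for *cdx1a*, -1.38 ± 0.05 for *cdx4* and -1.25 ± 0.05 for *eve1* (adjusted p = 6.14e-06, 1.03e-05 and 1.57e-05; 5.56% of 12295 genes lower). Leaving out 1 library or raising the marker value to 1.5 changed how many members passed in the *noto*-, *twist1a*-, *foxi1*- or *sox32*-positive sets, as given with the alternatives.

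Cells positive for 1 marker only spread the levels further. In such *tbx6l*-positive cells *cdx4* had 666 and 726 CPM in M*rbm24a* libraries, against 881 and 1072 CPM in siblings. In such *hesx1*-positive cells it had 44.2 and 41.7 CPM in M*rbm24a* libraries, against 53.0 and 76.3 CPM in siblings, all below the *tbx6l*-only value of any library. *cdx1a* averaged 183 ± 33.9 CPM in *tbx6l*-only cells and 23.6 ± 4.9 CPM in *noto*-only cells (SD, n = 4), and *eve1* averaged 311 ± 96.4 CPM in *szl*-only cells and 44.9 ± 7.1 CPM in *noto*-only cells. *cdx4* did not share that low axial level: at 415 ± 106 CPM its *noto*-only cells lay above its *sox32*-only (307 ± 61.7 CPM), *foxi1*-only (215 ± 27.1 CPM) and *twist1a*-only cells (181 ± 38.3 CPM). In *twist1a*-only cells, 63 to 104 per library, the log2 fold change of *eve1* over other cells was -1.36 ± 0.20 (adjusted p = 0.00426, beside 1.58% of genes lower), against 0.04 ± 0.06 in all *twist1a*-positive cells.

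**Figure D3:**
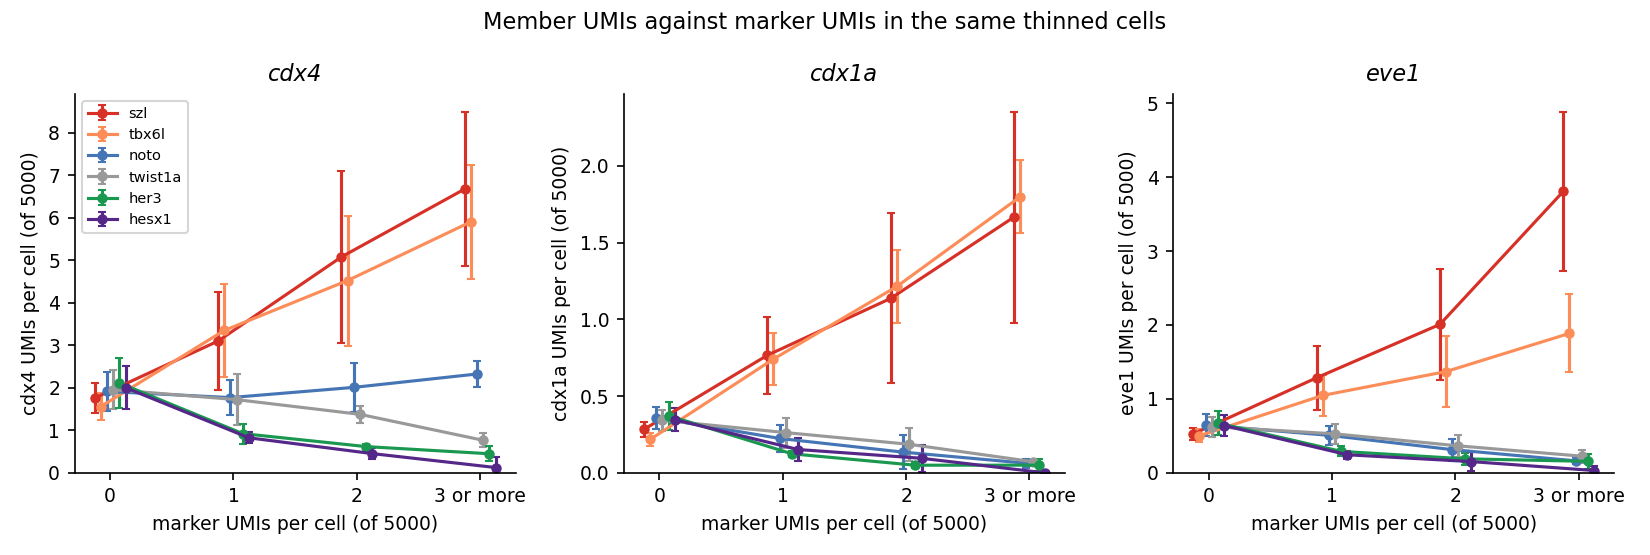
Mean UMIs of *cdx4*, *cdx1a* and *eve1* per cell against the UMIs of 6 markers in the same cell, after each cell was thinned to 5000 UMIs (points: mean over 4 libraries, bars: SD). Members rise with *szl* and *tbx6l* and fall with *her3*, *hesx1* and *twist1a*; with *noto*, *cdx1a* and *eve1* fall and *cdx4* does not.

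Along *tbx6l*, *szl*, *noto* and *her3* most members changed with the UMIs of the marker per cell. To take depth out, cells with at least 5000 UMIs were each thinned at random to 5000 UMIs, gene by gene (2166 to 3111 cells per library). *cdx4* averaged 1.56 ± 0.31 UMIs in cells with no *tbx6l* UMI, 3.35 ± 1.09 with 1, 4.52 ± 1.53 with 2 and 5.91 ± 1.34 with 3 or more (SD over 4 libraries; the last bin held 19 to 69 cells per library). Along *szl*, *eve1* averaged 0.526 ± 0.08, 1.29 ± 0.43, 2.01 ± 0.75 and 3.81 ± 1.08 UMIs over the same 4 steps, the last with 6 to 18 cells per library and the third with 18 to 39. Along *noto*, *cdx1a* averaged 0.359 ± 0.07, 0.224 ± 0.09, 0.135 ± 0.11 and 0.0626 ± 0.03 UMIs, and *eve1* 0.647 ± 0.14, 0.508 ± 0.13, 0.314 ± 0.15 and 0.163 ± 0.05 UMIs. In the same cells *cdx4* did not fall, at 1.91 ± 0.46, 1.77 ± 0.42, 2.01 ± 0.57 and 2.33 ± 0.31 UMIs, and it was higher in the last step than in the first in all 4 libraries. Cells with 3 or more *noto* UMIs, 48 to 119 per library, thus held *cdx4* at 1.92 and 2.25 UMIs in M*rbm24a* libraries, against 2.57 and 2.57 UMIs in siblings, with almost no *cdx1a* (0.0208 to 0.0824 UMIs over the libraries). Along *her3*, *cdx4* averaged 2.11 ± 0.59, 0.923 ± 0.23, 0.618 ± 0.06 and 0.449 ± 0.18 UMIs, where the last bin held 10 and 16 cells in M*rbm24a* libraries, against 75 and 65 in siblings. Along *foxi1*, *eve1* showed no such trend (0.610 ± 0.13, 0.601 ± 0.16, 0.661 ± 0.05 and 0.758 ± 0.64 UMIs, the last with 3 to 14 cells per library). Over its first 3 steps *cdx4* averaged 1.96 ± 0.49, 1.45 ± 0.22 and 1.14 ± 0.27 UMIs, and *cdx1a* went from 0.336 ± 0.07 to 0.16 ± 0.06 UMIs. Along *sox32*, *cdx4* averaged 1.93 ± 0.46, 1.94 ± 0.51, 1.61 ± 0.23 and 1.62 ± 0.39 UMIs. There *cdx1a* went from 0.342 ± 0.07 in the first step to 0.197 ± 0.05 UMIs in the last (75 to 115 cells per library). *eve1* was highest in that last step in all 4 libraries, with 0.604 ± 0.13, 0.570 ± 0.093, 0.642 ± 0.14 and 0.826 ± 0.096 UMIs over the steps.

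Each of the 3 members was found more often in cells with another member than in cells without it. After thinning, *cdx4* was found in 85.5% (95% CI 81.8 to 88.7) and 88.4% (85.2 to 91.1) of the cells with *cdx1a* in M*rbm24a* libraries, against 94.0% (91.8 to 95.8) and 94.6% (92.2 to 96.5) in siblings (exact Clopper-Pearson intervals, for counting error only). Among cells without *cdx1a* it was found in 54.8% and 50.4% in M*rbm24a* libraries, against 49.0% and 49.8% in siblings. The other way round, *cdx1a* was found in 25.6% to 34.1% of the cells with *cdx4* and in 2.65% to 7.37% of those without it. *eve1* was found in 54.8% and 59.1% of the cells with *cdx1a* in M*rbm24a* libraries, against 68.3% and 69.0% in siblings, and in 23.1% to 26.6% of cells without it. All 3 members were found together in 9.97% and 9.03% of cells in M*rbm24a* libraries, against 12.5% and 14.5% in siblings, and none of them in 31.1% and 36.8%, against 37.1% and 34.4%. UMIs of *cdx4* were also found in EVL cells, where the thinned share was 27.9% and 50.8% in M*rbm24a* libraries, against 54.4% and 47.1% in siblings (43 to 79 thinned cells, of 67 to 330 EVL cells with medians of 1009 to 11770 UMIs). Whether such a UMI marks an expressing cell or free RNA was not tested. The share in *hesx1*-positive cells, 45.6% and 43.0% in M*rbm24a* libraries and 38.0% and 34.4% in siblings (median 17977 to 21292 UMIs), lies within that range. The parts of free RNA and of cells shared with other sets in it were not tested. The share in *szl*-positive cells, 75.1% and 78.7% in M*rbm24a* libraries and 82.3% and 80.4% in siblings (median 17301 to 18756 UMIs), lies above the EVL range.

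**Figure D4:**
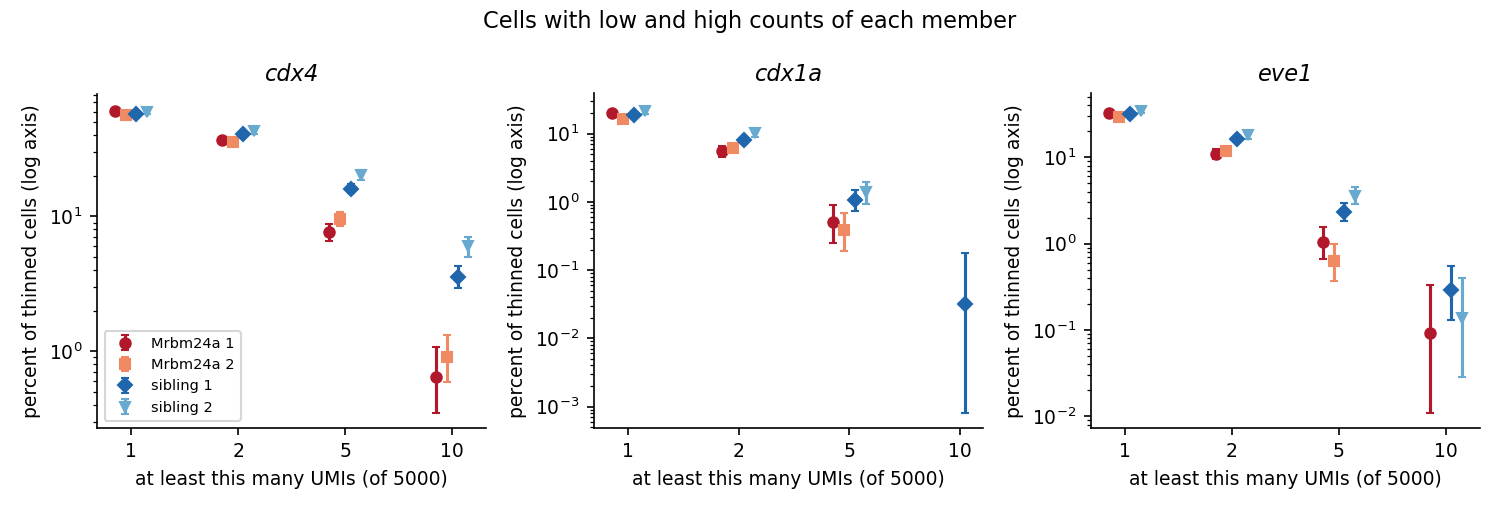
Percent of thinned cells (5000 UMIs each) with at least 1, 2, 5 or 10 UMIs of each member, by library, on a log axis (bars: exact 95% intervals for counting error; shares of 0 are left out). The genotypes overlap at 1 UMI, and at 2 and 5 UMIs both M*rbm24a* libraries lie below both siblings for each gene.

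Over all cells, the genotypes overlapped in the share of cells with any UMI of a member and did not overlap in the share with at least 2 or at least 5. For how many of all genes the thinned shares lie in this order, over all cells or in a marker set, was not counted. For whole-library CPM it was 28.5% of the genes tested. At least 1 UMI of *cdx4* was found in 60.9% and 56.6% of thinned cells in M*rbm24a* libraries, against 57.5% and 59.4% in siblings, so that the groups overlapped. In *szl*-positive cells the share was lower without overlap for *cdx1a* (28.6% and 32.3% in M*rbm24a* libraries, against 39.7% and 42.1% in siblings) and *eve1* (46.7% and 50.6%, against 59.1% and 64.3%) as well as for *cdx4*, and the same held for all 3 in *tbx6l*-positive cells. Over all cells again, at least 5 UMIs were found in 7.64% (6.56 to 8.83) and 9.59% (8.54 to 10.7) of cells in M*rbm24a* libraries, against 16.1% (14.8 to 17.4) and 20.2% (18.5 to 21.9) in siblings. At least 10 were found in 0.640% and 0.900%, against 3.57% and 6.0%. The shares at 5 UMIs had the same order for *cdx1a* (0.503% and 0.381%, against 1.06% and 1.39%) and for *eve1* (1.05% and 0.623%, against 2.35% and 3.6%), without overlap. For 2 libraries against 2, an exact permutation test cannot give a two-sided p under 0.33, and none was used here. The cells with at least 5 *cdx4* UMIs were *tbx6l*-positive in 70.1% and 57.0% of cases in M*rbm24a* libraries, against 53.1% and 56.3% in siblings, and *her3*-positive in 5.39% and 9.39%, against 12.2% and 10.1%. Of the remaining thinned cells, 33.8% and 27.8% were *tbx6l*-positive in M*rbm24a* libraries, against 21.9% and 20.8% in siblings, and 28.5% and 27.5% were *her3*-positive, against 39.2% and 39.4%. The cells with at least 5 *eve1* UMIs (23 and 18 cells in M*rbm24a* libraries, 73 and 78 in siblings) were *szl*-positive in 56.5% and 61.1%, against 78.1% and 69.2%.

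**Figure D5:**
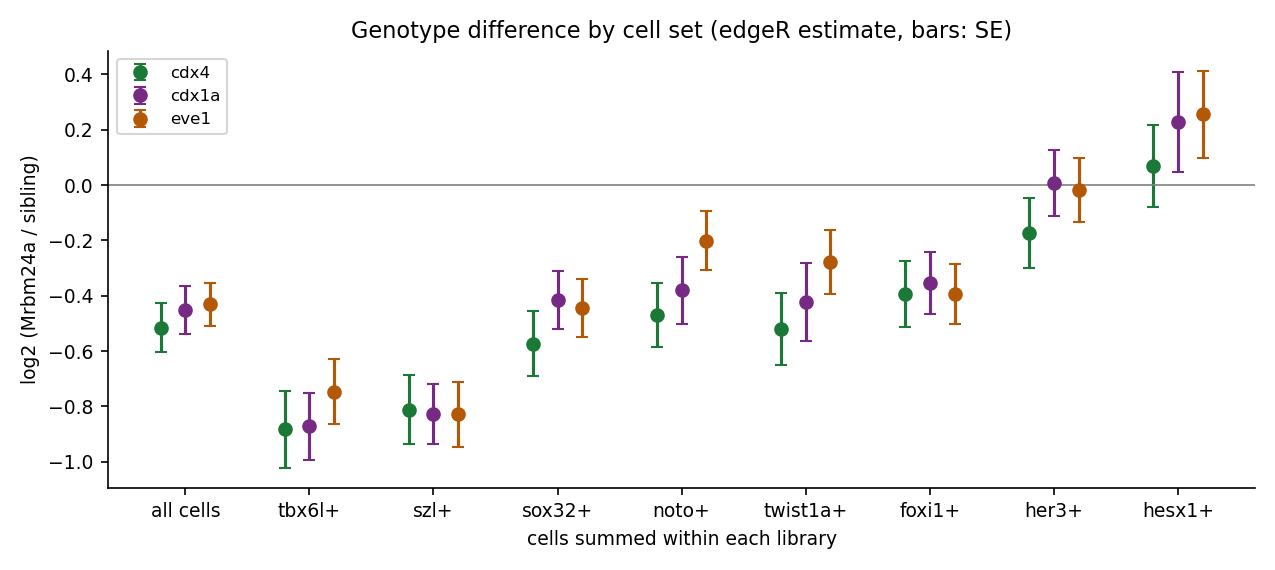
Genotype difference of *cdx4*, *cdx1a* and *eve1*, as log2 of M*rbm24a* over sibling with its SE, in all cells and in cells positive for each marker (edgeR on sums per library, 2 libraries per genotype). Estimates are lowest in *tbx6l*- and *szl*-positive cells, between -0.88 and -0.75, and near 0 in *her3*- and *hesx1*-positive cells.

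Over all cells positive for a marker, the genotype difference was largest where the members were high. In *tbx6l*-only cells *cdx4* had 666 and 726 CPM in M*rbm24a* libraries, against 881 and 1072 CPM in siblings. The genotypes lay nearer to each other there than in all *tbx6l*-positive cells (397 and 399 CPM, against 668 and 847 CPM). In *szl*-only cells *cdx4* had 452 and 481 CPM, against 943 and 986 CPM in siblings. In cells positive for 1 marker only, *cdx4* was also lower in M*rbm24a* libraries in the low *hesx1* set (44.2 and 41.7 CPM, against 53.0 and 76.3 CPM in siblings), without passing the threshold. There the genotypes overlapped for *cdx1a* (10.4 and 6.89 CPM in M*rbm24a* libraries, against 2.75 and 16.8 CPM in siblings). They also overlapped for *eve1* (16.7 and 9.28 CPM, against 6.81 and 24.7 CPM). The share of all genes without overlap was not counted in this small set. In *szl*-positive cells *cdx1a* had 80.7 and 81.9 CPM in M*rbm24a* libraries, against 139 and 163 CPM in siblings, with no overlap of the genotypes for any of the 3 members, as for 27.5% of genes there. It was the one member past the threshold (log2 fold change -0.83 ± 0.11, adjusted p = 0.0396 by edgeR, where 0.155% of 13519 genes passed as lower). *eve1* had 172 and 159 CPM in M*rbm24a* libraries, against 276 and 342 CPM in siblings (-0.83 ± 0.12, adjusted p = 0.0548), and *cdx4* had 396 and 401 CPM, against 671 and 798 CPM in siblings (-0.81 ± 0.13, adjusted p = 0.0685). The call of *cdx1a* was lost without M*rbm24a* 1 (adjusted p = 0.304) and in *szl*-only cells (adjusted p = 0.228). In *tbx6l*-positive cells the estimates were -0.88 ± 0.14 for *cdx4*, -0.87 ± 0.12 for *cdx1a* and -0.75 ± 0.12 for *eve1*, with both M*rbm24a* libraries below both siblings for each, as for 23.2% of 14651 genes there. None passed by edgeR (adjusted p = 0.0947, 0.0725 and 0.0947, unadjusted p = 0.000349, 0.000162 and 0.000345), beside 0.0819% of genes. DESeq2 called all 3, beside 0.662% of genes lower. With a marker value over 1.5 all 3 passed in *tbx6l*-positive cells by edgeR (adjusted p = 0.0292, 0.0175 and 0.0302), beside 0.466% of genes lower. The summed M*rbm24a* sets held 958 and 978 *tbx6l*-positive cells, against 885 and 666 in siblings, and *tbx6l* itself gave -0.66 ± 0.12 between the genotypes in these cells (adjusted p = 0.142) and -0.18 ± 0.09 in whole libraries (adjusted p = 0.359). In *szl*-positive cells *szl* gave -0.56 ± 0.14 (adjusted p = 0.244). The part of these marker levels in the members' differences was not tested.

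In the neural sets no member passed between the genotypes. In *her3*-positive cells *eve1* had 76.2 and 75.6 CPM in M*rbm24a* libraries, against 81.9 and 76.9 CPM in siblings (-0.02 ± 0.12), and in *hesx1*-positive cells 75.3 and 80.5 CPM, against 74.9 and 60.1 CPM (0.26 ± 0.16). *cdx4* gave -0.17 ± 0.13 and 0.07 ± 0.15, and *cdx1a* 0.01 ± 0.12 and 0.23 ± 0.18, in the *her3*- and *hesx1*-positive sets in that order, beside calls for 1.27% of genes with *her3* and 1.57% with *hesx1*. *cdx4* in *her3*-positive cells had 205 and 219 CPM in M*rbm24a* libraries, against 252 and 243 CPM in siblings, without overlap, as for 25.8% of genes there. In *hesx1*-only cells the estimates turned to -0.63 for *cdx4* and -0.45 for *eve1*, neither past the threshold. The test of the difference itself, the genotype effect in positive cells minus that in other cells, was positive for each: 0.54 ± 0.10 for *cdx4*, 0.67 ± 0.10 for *cdx1a* and 0.64 ± 0.10 for *eve1* with *her3* (adjusted p = 0.000912, 0.000124 and 0.000117, beside 3.57% of 15441 genes). It was 0.70 ± 0.13, 0.77 ± 0.18 and 0.83 ± 0.15 with *hesx1* (adjusted p = 0.00488, 0.0351 and 0.00443, beside 2.41% of 15326 genes). None of these calls held with a marker value over 1.5 or in cells positive for 1 marker alone, and without sibling 2 only *cdx1a* with *her3* passed (adjusted p = 0.0486). The marker *her3* was itself lower in whole M*rbm24a* libraries (-1.16 ± 0.08, adjusted p = 0.00418), as were *noto* (-0.58 ± 0.09, adjusted p = 0.0378) and *twist1a* (-0.70 ± 0.09, adjusted p = 0.0255), so the same value of 0.5 may take different cells in each genotype, and the part of this in the differences was not tested.

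In the *szl*- and *tbx6l*-positive sets the same test did not pass: the difference in genotype effect lay between -0.65 and -0.42 with *szl* and between -0.57 and -0.37 with *tbx6l* (adjusted p = 0.348 to 0.636 and 0.121 to 0.385 by edgeR). There edgeR called 0% of all genes, although 622 genes with *szl* and 1019 with *tbx6l* had an unadjusted p under 0.05, and DESeq2 called 2 and 36 genes. With a marker value over 1.5 all 3 members passed in both, for *szl* with -0.61 for *cdx4*, -0.89 for *cdx1a* and -0.80 for *eve1* (adjusted p = 0.00697, 0.0158 and 0.00697). There 0.1% of genes passed as lower with *szl* and 0.761% with *tbx6l*. In *noto*-, *twist1a*-, *foxi1*- and *sox32*-positive cells the genotype estimates of the 3 members lay between -0.57 and -0.20. No member passed by edgeR, beside 0.371%, 0%, 0.0144% and 1.51% of genes in that order of sets (with *twist1a*, where no gene passed, 924 genes had an unadjusted p under 0.05 and DESeq2 called 46). DESeq2 called *cdx4* and *eve1* in *sox32*-positive cells, beside 0.539% of genes lower. Both M*rbm24a* libraries were below both siblings for each member, as for 29.9%, 22.6%, 26.8% and 22.6% of genes in the same order. The difference in genotype effect did not pass for any member in these 4 sets, beside 0.0386% of genes with *noto*, 0% with *twist1a* and *foxi1* and 2.56% with *sox32*.

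The 3 genes most like each member over the 32 sums of 8 regions and 4 libraries, among 4803 genes with a mean of at least 20 CPM and without the 8 markers, included other members for *cdx1a* and *eve1* but not for *cdx4*. For *cdx4* they were *wnt5b*, a Wnt ligand of cell movements (Pearson r = 0.98 of log2 (CPM + 10)), *her7*, a repressor of the segmentation clock (r = 0.97), and *tbxta*, the Brachyury homologue (r = 0.96), with *eve1* at rank 5 and *cdx1a* at rank 6. For *cdx1a* they were *eve1* (r = 0.97), *fam222a* (r = 0.96) and *wnt5b* (r = 0.95), with *cdx4* next. For *eve1* they were *cdx1a* (r = 0.97), *fam222a* (r = 0.97) and *cdx4* (r = 0.96). The sums share libraries and, through cells positive for several markers, cells, so these values describe these libraries only. For *hoxb1b* and *hoxb1a* no such list could be made at their counts.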

How the data were processed

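Droplet single-cell 3′ RNA-seq of whole shield-stage embryos was analysed from the deposited matrix. The deposited values are estimated counts. The authors filtered reads by average quality with Trimmomatic. They counted UMIs with Cell Ranger (version not given in the sources used here, genome build GRCz10 in the submitters' processing notes). Then they subtracted ambient RNA with DecontX, which leaves decimals, removed doublets with Scrublet and removed cells beyond the median ± 5 median absolute deviations. No further cell filter or doublet caller was used. The genes and gene lists were chosen with earlier results of these data known.

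Per library and marker set, the values of all cells were added up and rounded. Genes past filterByExpr were tested by the quasi-likelihood method of edgeR 4.0.16 (R 4.3.3) with TMM factors, and p-values were adjusted over all genes after Benjamini-Hochberg at 0.05. Marker contrasts had the library as a covariate, and genotype contrasts had none. Sets of a main test held at least 50 cells per library, whereas cells positive for 1 marker could be fewer. CPM are from unrounded sums. Thinning drew the count of each gene among 5000 UMIs of a cell without replacement. Each gene was drawn separately, so the thinned counts of a cell are not a joint draw. Shares have Clopper-Pearson 95% intervals (scipy 1.17.1). On simulated data with 200 changed genes, the whole-library test recovered 88 of 110 genes with a log2 change of 1 and 86 of 86 with 2, with 5 false calls. The test of the difference in genotype effect, simulated for *szl*, recovered 39 of 80 and 95 of 111, with 6 false calls. Every simulated gene had the same dispersion, which was not taken from these libraries. Smaller changes were not simulated. The alternatives comprised DESeq2 1.42.0, size factors by RLE, all genes without the filter, limma 3.58.1 on log2 (CPM + 1), a marker value over 1.5, cells with at least 5000 UMIs, cells positive for 1 marker, each library left out, and the replicate number as a block. Those for the difference in genotype effect, and 1-marker cells for genotype tests, were chosen after seeing the data. Symbols *tbxta*, *chrd*, *otx2b* and *otx1* were matched through older names. The genes named are the 5 members, list genes past the threshold (at most 4 by fold) and the 3 genes most like each member. No sequence is shown.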

Additional observations from a re-analysis of the deposited data

Results flagged for a closer look

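The genotype effect on the 3 measurable members differed between neural and other cells by the test of the difference itself, with edgeR on 4 libraries. With *her3*-positive cells the difference was 0.54 for *cdx4*, 0.67 for *cdx1a* and 0.64 for *eve1*, beside 3.57% of genes called higher. With *hesx1*-positive cells it was 0.70 for *cdx4*, 0.77 for *cdx1a* and 0.83 for *eve1*, beside 2.41% of genes. The sets share many cells, so their calls are not independent: 194 to 419 cells per library were positive for both markers, where 426 to 577 were *hesx1*-positive. A positive value means that the members were less reduced, or not reduced, in M*rbm24a* cells with the marker. None of these 6 calls held in cells positive for 1 marker only, where the difference of *cdx4* with *hesx1* was -0.01, nor with a marker value over 1.5. Levels in both neural sets were low in both genotypes, and *her3* itself differed between the genotypes; the part of either in the difference was not tested.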

How the results depend on the processing

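Counts of members below are of the 3 that could be tested. In whole libraries, where edgeR called 0 of 3 members and 196 genes, DESeq2 called 3 members and 445 genes, no filter on low counts gave 3 members and 1812 genes, and limma gave 1 member (*cdx4* -0.55). The estimates were -0.51 (*cdx4*), -0.45 (*cdx1a*) and -0.43 (*eve1*) with DESeq2, and -0.52, -0.45 and -0.43 without the filter. With the replicate number as a block they were -0.51, -0.45 and -0.43, with 3 members and 568 genes called; the block gave 0 members in *szl*- and 3 in *tbx6l*-positive cells. The paper says that the cells were collected in batches, and the labels do not say whether an equal number marks a shared batch. The deviations of same-numbered libraries correlated at r = 0.10 over 17762 genes, which cannot decide this.

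Under DESeq2 the genotype test called 3 members in *szl*-, 3 in *tbx6l*- and 2 in *sox32*-positive cells, and the difference in genotype effect called 1 with *szl* and 1 with *tbx6l*. Without the filter, 3 members were called between genotypes in *szl*-, 3 in *tbx6l*- and 1 in *noto*-positive cells, and for the difference in effect 3 with *szl*, 2 with *tbx6l* and 1 with *noto*. A marker value over 1.5 gave, between genotypes, 2 members in *szl*- and 3 in *tbx6l*-positive cells, for the difference in effect 3 with *szl*, 3 with *tbx6l*, 0 with *her3* and 0 with *hesx1*, and against other cells 1 in *noto*- and 1 in *foxi1*-positive cells. Cells positive for 1 marker gave, for the difference in effect, 2 with *szl*, 0 with *her3* and 0 with *hesx1*, 3 in *twist1a*-positive against other cells and 2 in *hesx1*- against *her3*-positive cells.

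Signs turned as follows, the cause was not tested. With a marker value over 1.5, *cdx4* in *noto*-positive against other cells was 0.03, *eve1* in *twist1a*- and *foxi1*-positive against other cells -0.06 and -0.03, *cdx1a* in *hesx1*- against *her3*-positive cells -0.05, the genotype estimate of *eve1* in *noto*- and *her3*-positive cells 0.08 and 0.05 and of *cdx1a* in *foxi1*-positive cells 0.08, and the difference in effect of *cdx1a* with *sox32* 0.03. In cells positive for 1 marker, against other cells, *cdx4* was 0.08 with *noto* and -0.30 with *sox32*, and *eve1* -1.36 with *twist1a*, -0.43 with *foxi1* and -0.17 with *sox32*. Between genotypes, *eve1* was 0.26 with *noto*, *cdx4*, *cdx1a* and *eve1* 0.03, 0.89 and 0.35 with *twist1a*, and *cdx4* and *eve1* -0.63 and -0.45 with *hesx1*. The differences in effect were -0.03 (*cdx4*) and -0.10 (*cdx1a*) with *noto*, -0.01 (*cdx4*) with *hesx1* and -0.17 (*cdx1a*) with *foxi1*. In cells with at least 5000 UMIs, that of *cdx4* with *twist1a* was -0.00. *cdx1a* between genotypes in *hesx1*-only cells was not tested there, since it did not pass the filter.

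Leaving out 1 library in turn, a lone library was assumed to vary like the other genotype. In whole libraries 8 to 3824 genes and 0 to 3 members were called, with -0.58 to -0.45 for *cdx4*, -0.52 to -0.38 for *cdx1a* and -0.46 to -0.40 for *eve1*. Members called between genotypes ranged from 0 to 3 in *szl*-, *tbx6l*- and *sox32*-positive cells, 0 to 2 in *noto*- and 0 to 1 in *hesx1*-positive cells. For the difference in effect they ranged from 0 to 3 with *szl*, *tbx6l* and *hesx1*, 1 to 3 with *her3* and 0 to 1 with *noto*. Against other cells they ranged from 1 to 2 with *noto*, 0 to 1 with *twist1a* and 0 to 2 with *foxi1*, and were 1 throughout with *sox32* (2 with all libraries). Estimates whose sign turned ranged as follows: against other cells with *twist1a*, -0.04 to 0.01 (*cdx4*) and -0.01 to 0.11 (*eve1*); *eve1* in *hesx1*- against *her3*-positive cells, -0.24 to 0.00; between genotypes with *her3*, -0.10 to 0.11 (*cdx1a*) and -0.12 to 0.09 (*eve1*), and with *hesx1*, -0.06 to 0.22 (*cdx4*) and -0.03 to 0.57 (*cdx1a*). Differences in effect ranged from -0.07 to 0.15 (*cdx1a*, *noto*), -0.05 to 0.06 (*cdx4*, *twist1a*), -0.05 to 0.09 (*cdx1a*, *twist1a*), -0.01 to 0.28 (*cdx1a*, *foxi1*), -0.04 to 0.17 (*eve1*, *foxi1*), -0.17 to 0.02 (*cdx4*, *sox32*), -0.14 to 0.12 (*cdx1a*, *sox32*) and -0.05 to 0.17 (*eve1*, *sox32*).

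RLE factors changed no member's direction or call in any of 87 tests. Thinning moved all 24 shares in marker-positive cells by more than their SD. Of 298 counts of called genes over all contrasts and alternatives, 144 moved by over 1.5 times. With 2 libraries per genotype, and *hox* counts near 0, small differences and any change of *hoxb1b* or *hoxb1a* could not be detected here. Whether depth or reads that missed the entries kept the *hox* counts low was not tested.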
